A study of Homo sapiens with 7 samples.

Results

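The genes described here are 41 genes of glycolysis and of the response to low oxygen, taken by symbol from a count table of 59251 gene rows, in which all 41 were found. They comprise 19 glycolytic enzymes, 4 transporters of glucose and lactate, 2 pyruvate dehydrogenase kinases, the 2 alpha subunits HIF1A and EPAS1 of the hypoxia-inducible factor (HIF), and 14 other genes known to respond to hypoxia. Poly(A) RNA was sequenced from H9 cells, an established line of human embryonic stem cells, grown in RSeT, a medium for naive-state pluripotent cells. The 4 CTRL and 3 DJL1 libraries came from cells transfected with guide RNA plasmids of these names and harvested at 48 h. The medium of CTRL and DJL1 alike held 10 nM DZNep, which blocks histone methylation, and 5 nM TSA, which blocks histone deacetylases, throughout, and the CEPT survival cocktail (which includes Chroman 1, Emricasan, polyamine and Trans-ISRIB) for the initial 16 h, so that no group here was free of these agents. The title of the series names LINE1 elements at the distal junctions of ribosomal DNA repeats, and the sources used here do not say which protein the guides direct, what the CTRL guides target or which oxygen level was used. All cells were of 1 line, and nothing says that the libraries came from separate cultures, so a p-value here reflects the scatter among these libraries, which may be technical.

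Glycolysis splits glucose into pyruvate in the cytosol, and pyruvate then becomes lactate or enters the mitochondria through the pyruvate dehydrogenase complex. In low oxygen the HIF alpha subunits escape hydroxylation by the EGLN enzymes and destruction by the VHL ubiquitin ligase, pair with ARNT and bind short DNA elements near their target genes. Most glycolytic enzymes, the glucose transporter SLC2A1 and the kinase PDK1 are classical HIF1A targets, as are VEGFA, ADM, CA9 and BNIP3, whereas naive and primed pluripotent cells are known to differ in their use of glycolysis and respiration.

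The core of the element that HIF binds is ACGTG, with a variant that reads GCGTG. Both were searched on both strands in the RefSeq promoter windows of GRCh38.p14, which run from 250 bases before to 50 bases after a transcript start, and CACGTG counts as ACGTG on both strands. Of the 41 genes, 35 had at least 1 window, 65 windows in all. ACGTG lay in 36.9% of these windows against 18.5% of all 35116 windows, GCGTG in 35.4% against 32.2%, and either in 60.0% against 43.2%. The windows of the 35 genes were also richer in G and C (mean 65.3% against 57.2%). Such a match is a description of the letters and not a measured binding site. The stretches below are a selection from the matches of 5 genes that were higher in DJL1 (EPAS1, MXI1, ADM, KDM3A and ENO2), 4 that were lower (LDHA, PDK1, PDK3 and GAPDH) and PGK1, which was not called, to show that a core stood before genes of either direction. Not every match is shown: MXI1, LDHA, PDK3 and PGK1 have others. EPAS1, ADM and KDM3A held only the variant GCGTG, whereas MXI1, ENO2 and each of the 4 lower genes shown held ACGTG on either strand. This contrast is limited to the genes shown. Of all members with a window, ACGTG was found for 7 of 11 higher genes, 9 of 15 lower and 5 of 9 not called. Capitals mark either core in the direction of the gene, or its reverse complement, and each stretch lies upstream of a RefSeq transcript start and is written 5′ to 3′ on the strand of its gene, the plus strand in every case.
EPAS1 (chr2:46297278-46297306): gggcctgccggcGCGTGcccgcccacaca
MXI1 (chr10:110210106-110210134): gtggccaccagtCACGTaagcagagagcc
ADM (chr11:10304960-10304988): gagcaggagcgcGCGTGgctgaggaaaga
KDM3A (chr2:86441333-86441361): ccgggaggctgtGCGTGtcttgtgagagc
ENO2 (chr12:6914450-6914478): acccgcgctcgtACGTGcgcctccgccgg
LDHA (chr11:18394366-18394395): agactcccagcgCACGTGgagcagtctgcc
LDHA (chr11:18394464-18394493): cagcccgactcaCACGTGggttcccgcacg
PDK1 (chr2:172556065-172556089): ctgcccgcCACGTccctCACGTacc
PDK3 (chrX:24465213-24465241): cgcgcgccgcgtACGTGcagcaaccgact
GAPDH (chr12:6535171-6535200): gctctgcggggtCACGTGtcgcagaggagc
PGK1 (chrX:78104029-78104058): ggttcgcgGCGTGccggACGTGacaaacgg

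Either core was found in a window of 10 of 11 genes that were higher in DJL1, 12 of 15 that were lower and 7 of 9 that were not called. Together these are 29 of 35 genes, or 82.9%, against 47.4% of all 27305 genes with a window. For ACGTG the shares of genes were 60.0% and 21.7%. The 35 genes had 65 windows and the 27305 genes 35116, so each gene here had more room for a match. No match was found for PGAM1, PKM, LDHB, SLC2A1, EGLN3 and P4HA2, which says only that these letters are not in these windows. No promoter window was used for SLC2A3, SLC16A1, BNIP3L, NDRG1, VEGFA and HILPDA.

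Library totals ran from 62277489 to 76691997 counts in CTRL and from 34634882 to 37795742 in DJL1, so that every DJL1 library was shallower than every CTRL library. The biological coefficient of variation was 3.46% among CTRL and 13.8% among DJL1 libraries. Levels are given in CPM, counts scaled to library size after TMM normalisation, and each group as mean ± SD. The groups were compared with the quasi-likelihood test of edgeR (2-sided, Benjamini-Hochberg adjustment over 26062 tested genes), and a gene is called higher or lower at an adjusted p under 0.05. The pluripotency markers were present in every library, POU5F1 at 5324 ± 73.1 CPM in CTRL (n = 4) and 5354 ± 269 in DJL1 (n = 3), with SOX2 at 321 ± 6.30 and 245 ± 15.6 CPM and NANOG at 121 ± 1.36 and 85.2 ± 7.66 CPM. Of the 10 pluripotency markers 8 were called lower in DJL1 and 2 were not called, with a median log2 fold change of -0.40, and their summed level was 9117 to 9324 CPM in CTRL and 7930 to 8756 CPM in DJL1. The part of this in the changes below was not tested. KLF17, a defining marker of the naive state, was low, at 1.64 to 2.99 CPM in CTRL and 7.09 to 13.2 CPM in DJL1. The summed levels were 380.5 to 387 CPM in CTRL and 459.9 to 533 CPM in DJL1 for 9 naive markers, and 3074 to 3138 and 1855 to 2174 CPM for 9 primed markers. Of the naive markers 7 were called higher and 2 lower, and of the primed markers 3 higher and 5 lower.

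The changes went in both directions over the 41 genes. All passed the filter on low counts, 14 were called higher in DJL1 and 18 lower, where 27.0% of all tested genes were called higher and 25.1% lower. The groups did not overlap for 32 of the 41, 15 with DJL1 above CTRL and 17 with DJL1 below. Over all tested genes the groups did not overlap for 53.6%, with DJL1 above for 27.4% and below for 26.2%. These shares depend on level. Of 20 members with a mean of at least 64 CPM 25.0% were called higher and 55.0% lower, beside 22.8% and 52.1% of 3646 genes. Of 18 members at 8 to 64 CPM 50.0% were called higher and 33.3% lower, beside 28.9% and 38.3% of 8140 genes. The groups overlapped for 4 of these 20 members and 877 of the 3646 genes. At 8 to 64 CPM they overlapped for 2 of 18 members and 2656 of 8140 genes. Together the 41 rows held 1.02% to 1.03% of the counts of each CTRL library and 0.932% to 0.994% of each DJL1 library.

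The glycolytic enzymes and the other hypoxia targets differed in their balance. Of 19 enzymes 12 fell, 4 rose and 3 were not called, with a median log2 fold change of -0.24. Of 14 other hypoxia targets 8 rose, 1 fell and 5 were not called, with a median of 0.27, where the median of all tested genes was 0.01. The medians depended on the choices made: that of the enzymes was -0.13 with the trend of fold change with expression level removed, an alternative chosen after seeing the data. That of the targets was 0.14 with the transporters and kinases counted among them and 0.43 without EGLN1 and EGLN3. Abundant genes as a whole leaned downward: of the 3646 genes whose mean reached 64 CPM 52.1% were called lower and 22.8% higher, with a median of -0.12. The 15 enzymes at that level included 8 called lower, or 53.3%, which is close to that background. The 11 other hypoxia targets with a mean of 8 to 64 CPM included 7 called higher, or 63.6%, where 28.9% of the 8140 genes at that level were called higher and 38.3% lower. The difference between the lists was not tested, since their members were chosen with results known.

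**Figure D1:**
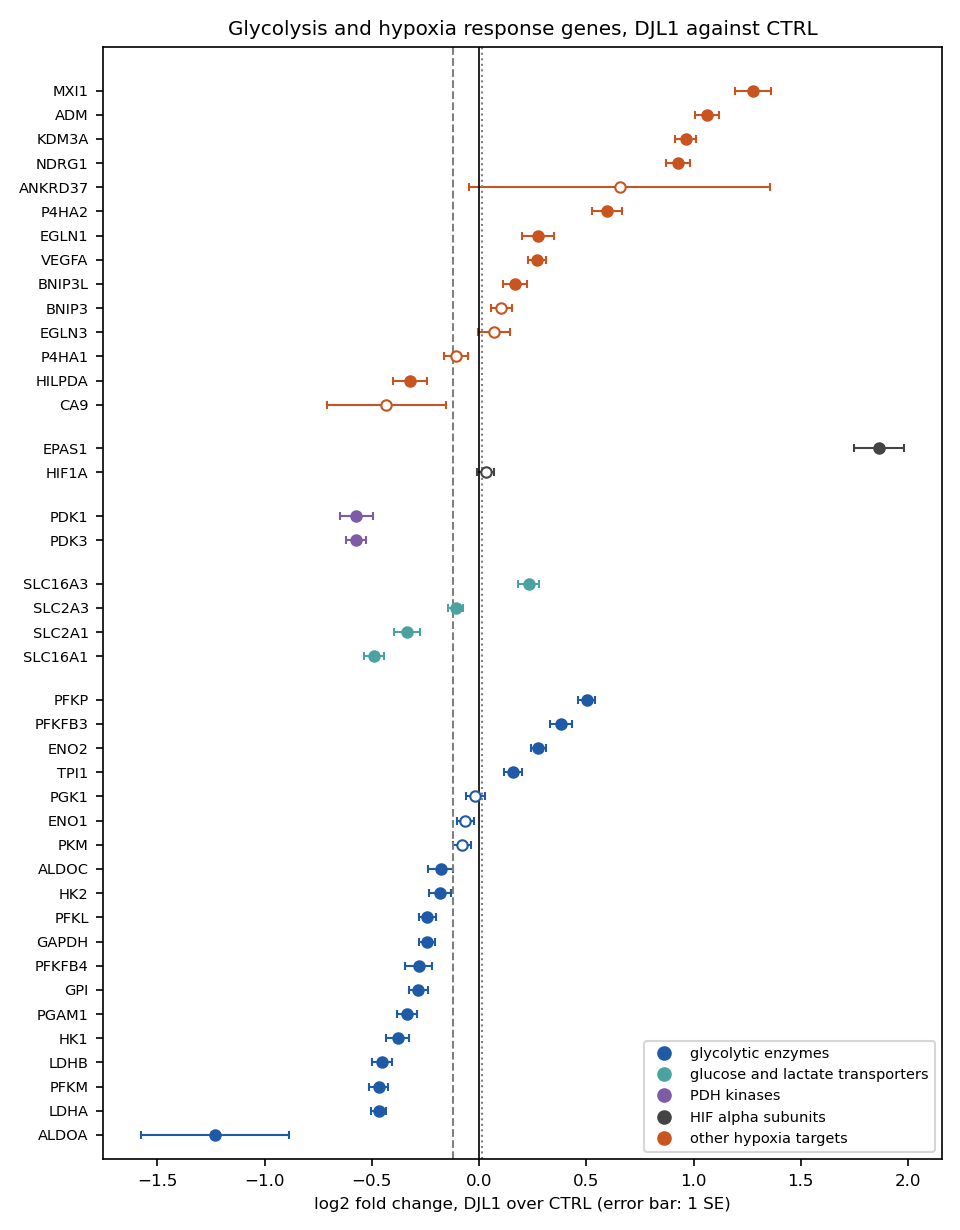
Log2 fold change of DJL1 over CTRL for each of the 41 genes by role, with bars of 1 standard error, filled points for called genes and open points for genes not called; the dotted line is the median of all tested genes (0.01) and the dashed line the median of genes with at least 64 CPM (-0.12). Most enzymes lie left of 0 and most other hypoxia targets right of it, with PFKP, PFKFB3, ENO2 and TPI1 as the enzymes that rose.

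The HIF alpha subunits parted. EPAS1 (HIF-2 alpha, chr2:46297407-46386697) was at 4.14, 3.89, 4.87 and 4.85 CPM in the CTRL libraries and at 15.2, 19.1 and 14.1 CPM in the DJL1 libraries. Every DJL1 library was thus well above every CTRL library, from a low level. EPAS1 rose by 1.86 ± 0.12 on the log2 scale (SE, edgeR adjusted p = 5.41e-09), the greatest rise among the 41 genes. HIF1A, the subunit that drives most glycolytic targets, lay at 131, 132, 131 and 134 CPM in CTRL and at 135, 128 and 141 CPM in DJL1. These ranges overlapped, and its log2 fold change of 0.03 ± 0.04 was not called (edgeR adjusted p = 0.565). When the trend of fold change with expression level was removed, HIF1A had a log2 fold change of 0.14 and was called higher (edgeR adjusted p = 0.0035). Per kilobase of transcript, EPAS1 made up 2.195% to 2.74% of the pair in CTRL and 7.04% to 10.2% in DJL1, so HIF1A stayed the more abundant RNA of the pair in every library. In bulk RNA, a change in the level per cell and a change in the share of cells that express a gene cannot be told apart, here and for every gene that follows. The summed level of 15 fibroblast markers was 756 to 780 CPM in CTRL and 1083 to 1192 in DJL1, with 10 of 12 tested markers higher, and COL1A1 was at 241 ± 5.41 and 484 ± 49.8 CPM. The summed level of 8 trophectoderm markers was 11.1 to 14.3 and 35.5 to 45.6 CPM, with 6 of 6 tested markers higher. The endothelial markers summed to 52.5 to 55.8 and 50.8 to 53.4 CPM, with 1 of 5 tested markers higher and 1 lower, and PECAM1 was under 0.6 CPM in all libraries. No listed marker was at 0 in all libraries, and the part of these other cell types in the rise of EPAS1 and of the hypoxia targets was not tested.

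Among the other hypoxia targets 4 rose by 1.90-fold to 2.42-fold. MXI1, a repressor that competes with MYC for its partner MAX, was at 9.34, 9.76, 10.2 and 10.6 CPM in CTRL and at 24.4, 27.0 and 21.2 CPM in DJL1. ADM, which encodes the vasodilator peptide adrenomedullin, was at 21.0, 21.4, 23.6 and 22.2 CPM in CTRL and 43.5, 47.8 and 46.7 CPM in DJL1. KDM3A, a histone H3 lysine demethylase induced by HIF, was at 49.9, 47.9, 53.1 and 49.8 CPM in CTRL and 101, 100.3 and 92.2 CPM in DJL1. In each of these the lowest DJL1 library was far above the highest CTRL library. Their log2 fold changes were 1.28 ± 0.08 for MXI1, 1.06 ± 0.06 for ADM and 0.96 ± 0.05 for KDM3A (edgeR adjusted p = 8.33e-09, 1.18e-09 and 5.4e-10). NDRG1, a stress- and hypoxia-induced gene, was at 34.6, 33.9, 34.4 and 36.0 CPM in CTRL and 60.3, 72.2 and 65.8 CPM in DJL1. It rose by 0.93 ± 0.06 on the log2 scale (edgeR adjusted p = 4.04e-09).

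The remaining called targets moved less. P4HA2, a collagen prolyl hydroxylase subunit, rose from 22.4 ± 1.34 CPM (n = 4) to 33.9 ± 3.20 CPM (n = 3), a log2 fold change of 0.60 ± 0.07. VEGFA, the angiogenic growth factor, rose from 52.7 ± 0.551 to 63.5 ± 1.78 CPM (log2 fold change 0.27 ± 0.04). EGLN1, the main oxygen sensor that marks HIF alpha for destruction, rose from 12.4 ± 0.666 to 14.99 ± 0.601 CPM (0.28 ± 0.07). BNIP3L, a mitophagy receptor, rose from 27.5 ± 1.12 to 30.9 ± 0.721 CPM (0.17 ± 0.05, edgeR adjusted p = 0.0164). The groups did not overlap for these 4 genes, but BNIP3L was no longer called without CTRL replicate 4 or without DJL1 replicate 3 (edgeR adjusted p = 0.0591 and 0.0525). HILPDA, which blocks lipid breakdown in hypoxic cells, was the target that fell, from 14.2, 14.2, 13.7 and 13.4 CPM to 10.5, 10.5 and 12.3 CPM (log2 fold change -0.32 ± 0.08, edgeR adjusted p = 0.00305).

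Of the 5 targets that were not called, CA9 and ANKRD37 had few counts. Their exons share 643 bases with ARHGEF39 and 909 bases with UFSP2, in that order, on the opposite strand. Whether counting used strand is not given, so these rows may not give the full level of either gene. CA9, a carbonic anhydrase used as a marker of hypoxic tissue, had 53 to 66 counts in CTRL and 19 to 30 in DJL1, or 0.789 to 0.999 and 0.513 to 0.856 CPM. ANKRD37 had 4 to 14 counts in CTRL and 2 to 19 in DJL1, and at this depth its log2 fold change of 0.66 ± 0.70 was not separable from 0. BNIP3, the other mitophagy receptor, was at 47.7 to 54.5 CPM in CTRL and 55.0 to 55.8 CPM in DJL1, apart but with an edgeR adjusted p of 0.0938, and 40 rows named as BNIP3 pseudogenes held 23.3% to 27.1% of the combined counts. It was called higher by edgeR with upper quartile factors, with the stricter filter and with the trend removed (adjusted p = 0.0476, 0.0274 and 0.00457). In the authors' deposited table BNIP3 had a log2 fold change of 0.12 and an adjusted p of 0.0494. EGLN3, a HIF-induced oxygen sensor, was at 15.2 ± 0.513 and 16.0 ± 1.498 CPM. P4HA1, the other collagen prolyl hydroxylase subunit listed, was at 48.6 ± 1.05 and 45.1 ± 4.36 CPM. It was called lower without DJL1 replicate 3 (log2 fold change -0.19, edgeR adjusted p = 0.00504) or with no filter (-0.14, adjusted p = 0.0361).

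**Figure D2:**
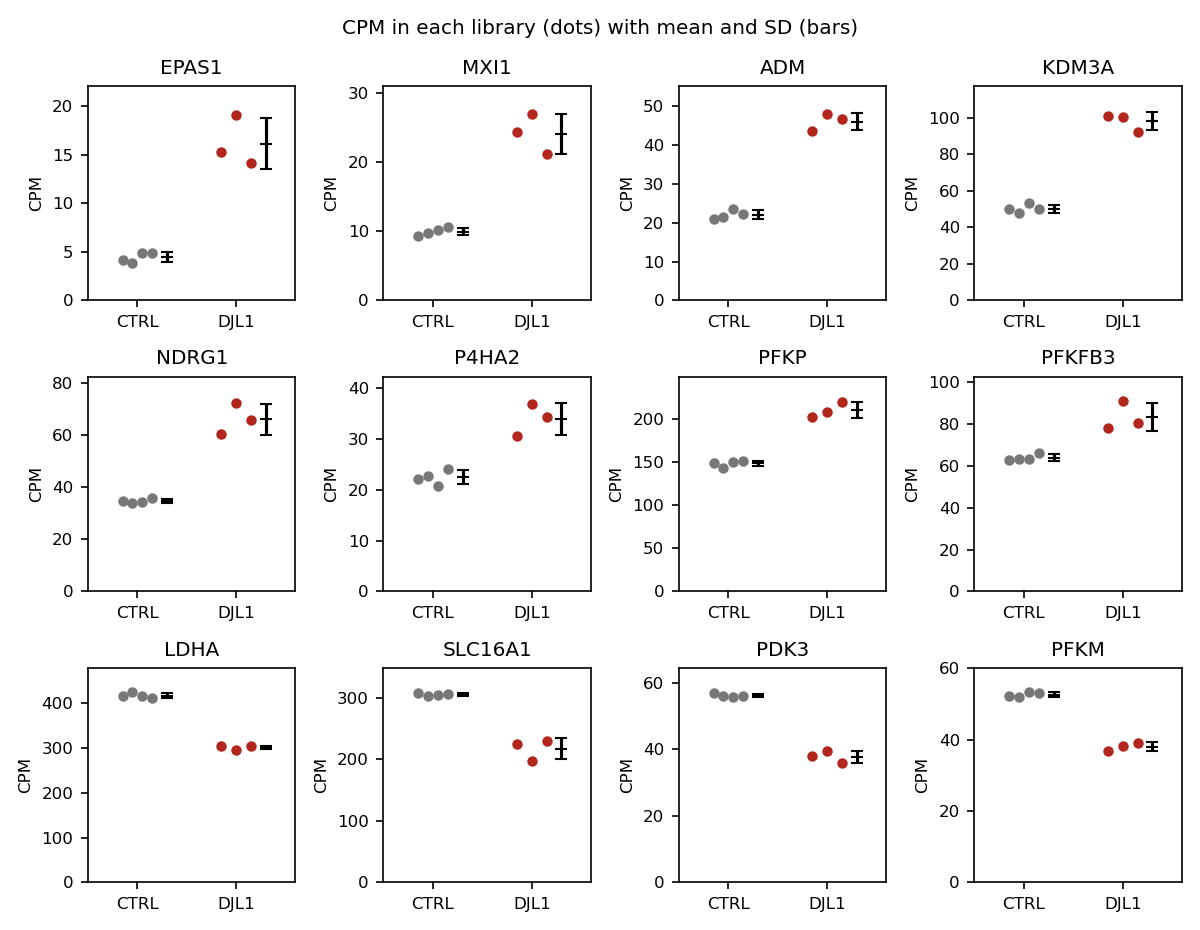
CPM of 12 of the 41 genes in each library (grey dots, 4 CTRL libraries; red dots, 3 DJL1 libraries) with mean and SD beside the dots and axes that start at 0. In the 8 panels from EPAS1 to PFKFB3 every DJL1 library is above every CTRL library, and in the panels of LDHA, SLC16A1, PDK3 and PFKM every DJL1 library is below.

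The enzymes are given in the order of the pathway. Per kilobase of transcript GAPDH had the highest mean level of them in CTRL (1276 CPM per kilobase), followed by TPI1 (726), ENO1 (660.1), PKM (463), LDHB (412) and PGAM1 (384). Hexokinase traps glucose in the cell as glucose 6-phosphate. HK1, the constitutive form, was at 216, 216, 214 and 218 CPM in CTRL and 171, 147 and 179.9 CPM in DJL1 (log2 fold change -0.38 ± 0.05, edgeR adjusted p = 2.69e-05). HK2, the form induced by hypoxia, fell less, from 88.8 ± 2.09 to 78.1 ± 6.60 CPM (-0.18 ± 0.05), and was not called with that trend removed (-0.09, edgeR adjusted p = 0.123). GPI, which converts glucose 6-phosphate to fructose 6-phosphate, fell from 305 ± 5.44 to 251 ± 15.2 CPM (-0.28 ± 0.04).

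Phosphofructokinase, the committed step, changed its isoform balance. PFKP, the platelet form (chr10:3067548-3136805), was at 149, 144, 149.8 and 152 CPM in CTRL and 202, 208 and 220.1 CPM in DJL1. PFKL, the liver form, was at 218, 220.3, 216 and 214 CPM in CTRL and 179, 179 and 194 CPM in DJL1. PFKM, the muscle form, was at 52.3, 52.0, 53.2 and 53.0 CPM in CTRL and 36.7, 38.3 and 39.1 CPM in DJL1. None of the 3 genes overlapped between the groups, and PFKP went up while the other two went down. Their log2 fold changes were 0.50 ± 0.04, -0.24 ± 0.04 and -0.47 ± 0.05 (edgeR adjusted p = 6.91e-08, 0.000123 and 5.16e-07). Per kilobase, PFKP held 36.7% to 38.4% of the 3 in CTRL and 50.8% to 51.4% in DJL1, which made it the most abundant form in DJL1 in place of PFKL. The bifunctional enzymes that set the level of the activator fructose 2,6-bisphosphate also parted. PFKFB3, the form with high kinase activity, rose from 62.7, 63.3, 63.0 and 66.3 CPM to 78.2, 90.7 and 80.6 CPM (log2 fold change 0.38 ± 0.05), and PFKFB4 fell from 25.8 ± 0.549 to 21.2 ± 1.49 CPM (-0.28 ± 0.06).

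In the middle of the pathway the directions were mixed. Aldolase splits fructose 1,6-bisphosphate, and ALDOC fell from 32.0 ± 1.16 to 28.2 ± 1.62 CPM (-0.18 ± 0.06), a call that was lost without CTRL replicate 1 and with the trend removed (edgeR adjusted p = 0.0580 and 0.0687). The row of ALDOA had only 246 to 484 counts in CTRL and 37 to 148 in DJL1, or 3.96 to 6.37 and 1.06 to 3.99 CPM, and the groups overlapped. The RefSeq span of LOC112694756 covers 99.9% of that of ALDOA, and how reads shared by both were counted is not given in the sources used here, so this row may not give the level of ALDOA. Its log2 fold change of -1.23 ± 0.34 was called (edgeR adjusted p = 0.0125) but not without DJL1 replicate 1 (edgeR adjusted p = 0.0639), with limma-voom and a variance for each group (adjusted p = 0.0893) or with the replicate number as a block (0.219). TPI1, which interconverts the triose phosphates, rose from 894 ± 19.6 to 998 ± 52.2 CPM (0.16 ± 0.04), with pseudogene rows at 8.60% to 10.2% of the combined counts. GAPDH, which oxidises glyceraldehyde 3-phosphate and often serves as a reference gene, was at 1704, 1745, 1708 and 1724 CPM in CTRL and 1409, 1439 and 1514 CPM in DJL1. All 3 DJL1 libraries were lower, and it fell by 0.24 ± 0.04 on the log2 scale (edgeR adjusted p = 5.65e-05).

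In the payoff phase PGK1, ENO1 and PKM were not called. PGK1, which makes ATP from 1,3-bisphosphoglycerate, was at 485 ± 8.25 and 479 ± 34.3 CPM (log2 fold change -0.02 ± 0.05). ENO1, the common enolase, was at 1362 ± 14.9 and 1302 ± 62.6 CPM (-0.06 ± 0.04), and PKM, the pyruvate kinase, at 1259 ± 8.24 and 1192 ± 81.9 CPM (-0.08 ± 0.04). Without DJL1 replicate 3, the DJL1 library with the highest level of each of these, ENO1 and PKM were called lower (-0.11 and -0.14, edgeR adjusted p = 0.00657 and 0.00248), and so was PKM with no filter (-0.11, adjusted p = 0.0218). PGAM1, the phosphoglycerate mutase, fell from 703 ± 8.07 to 557 ± 45.9 CPM (-0.34 ± 0.05). ENO2, the neuronal enolase, rose from 227, 225, 226 and 222 CPM to 267, 279 and 273 CPM (0.28 ± 0.04, edgeR adjusted p = 9.69e-06). Its share of the 2 enolases per kilobase was 11.6% to 12.01% in CTRL and 13.9% to 15.03% in DJL1.

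Lactate dehydrogenase fell in both forms. LDHA, the form that favours lactate production, was at 415, 424, 416 and 411 CPM in CTRL and 303, 296 and 303 CPM in DJL1. LDHB, which favours pyruvate, was at 591, 594, 574 and 582 CPM in CTRL and 428, 392 and 462 CPM in DJL1. Every DJL1 library was below every CTRL library for both genes. The log2 fold changes were -0.47 ± 0.04 and -0.45 ± 0.05 (edgeR adjusted p = 3.86e-08 and 1.3e-06), and the share of LDHA in the pair overlapped between the groups (34.2% to 34.8% in CTRL and 32.6% to 35.8% in DJL1).

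The transporters and the pyruvate dehydrogenase kinases mostly fell. SLC2A1 (GLUT1), the basal glucose importer, was at 143, 143, 137 and 145 CPM in CTRL and 108, 102 and 127 CPM in DJL1 (log2 fold change -0.34 ± 0.06, edgeR adjusted p = 0.000183). SLC2A3 (GLUT3), the glucose importer of high affinity, fell from 387 ± 3.79 to 358 ± 6.91 CPM (-0.11 ± 0.04, edgeR adjusted p = 0.0168). This small change had a value of -0.01 when the trend of fold change with expression was removed (edgeR adjusted p = 0.866), and SLC2A3 has a near-identical copy, SLC2A14, with which reads could be split. The lactate carriers parted: SLC16A1 (MCT1) was at 308, 303, 304 and 306 CPM in CTRL and 225, 198 and 229.9 CPM in DJL1, and SLC16A3 (MCT4), the HIF-induced lactate exporter, at 40.1, 42.7, 41.2 and 40.9 CPM in CTRL and 45.3, 49.8 and 50.0 CPM in DJL1. Neither gene overlapped between the groups. SLC16A1 fell by 0.49 ± 0.05 and SLC16A3 rose by 0.23 ± 0.05 on the log2 scale (edgeR adjusted p = 5.09e-07 and 0.00117), and the share of SLC16A3 in the pair per kilobase was 20.7% to 22.03% in CTRL and 28.8% to 33.6% in DJL1. The exons of SLC16A3 share 482 bases with CSNK1D on the opposite strand. Among others, PFKM shares 628 bases with SENP1 and BNIP3L 330 bases with PNMA2 in the same way. Strand use in counting is not given, so the levels and shares of these genes may be affected.

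PDK1 and PDK3 phosphorylate and switch off pyruvate dehydrogenase, which keeps pyruvate out of the mitochondria. PDK1 was at 64.9, 65.0, 61.5 and 61.0 CPM in CTRL and 46.2, 34.5 and 46.5 CPM in DJL1. PDK3 was at 57.0, 56.1, 55.9 and 56.2 CPM in CTRL and 38.1, 39.5 and 35.9 CPM in DJL1. Both were lower in all 3 DJL1 libraries, with log2 fold changes of -0.57 ± 0.08 and -0.57 ± 0.05 (edgeR adjusted p = 1.88e-05 and 8.46e-08). Genes named above as classical HIF1A targets thus went in both directions. SLC2A1 and PDK1 fell, ADM and VEGFA rose, and BNIP3 and CA9 were not called. Of the 19 enzymes 12 fell and 4 rose. The reason for these differences was not tested.

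**Figure D3:**
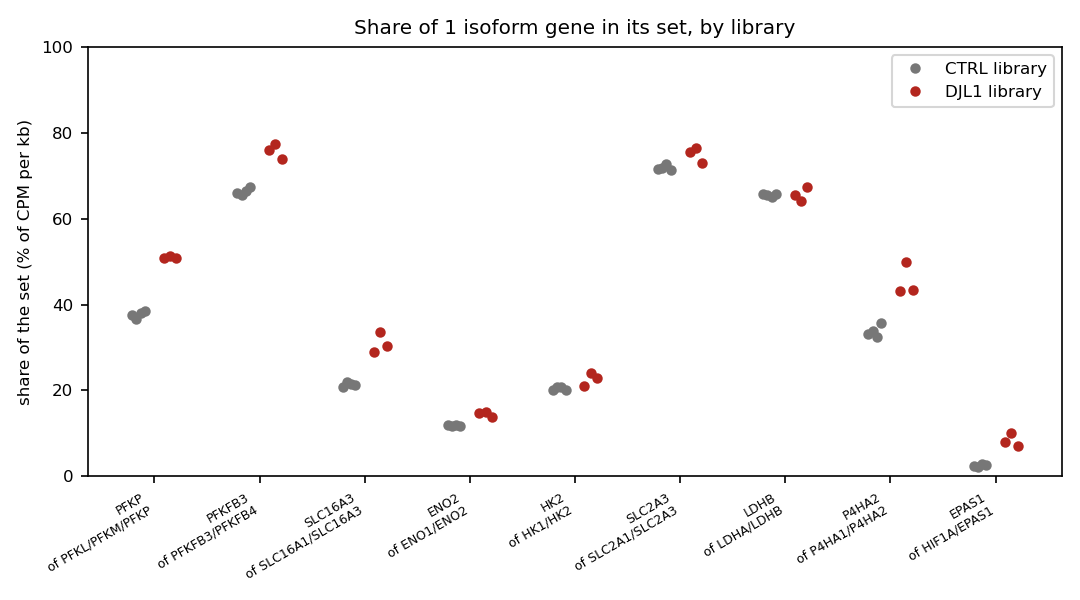
Share of 1 gene in its set of related genes, as a percent of CPM per kilobase, in each CTRL library (grey) and each DJL1 library (red). The share of PFKP rises from 37.7% to 51.0% on average, those of PFKFB3, SLC16A3, P4HA2 and EPAS1 are also apart between the groups, and that of LDHB overlaps.

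Shares within 13 sets of related genes were compared only for whether the ranges of the groups overlapped. No such share was computed for other genes, so these overlaps have no background. The 53.6% of all tested genes without overlap refers to levels of single genes, a different measure. The shares did not overlap between CTRL and DJL1 for the sets of phosphofructokinase, PFKFB3 and PFKFB4, the lactate carriers, enolase, hexokinase, the glucose carriers, the prolyl hydroxylases P4HA1 and P4HA2, and the HIF alpha subunits. PFKFB3 held 65.5% to 67.5% of its pair in CTRL and 73.9% to 77.5% in DJL1, and P4HA2 32.6% to 35.8% and 43.1% to 49.9%. The shift was small for hexokinase, where HK2 held 20.0% to 20.8% in CTRL and 21.1% to 24.2% in DJL1, and for the glucose carriers, where SLC2A3 held 71.3% to 72.8% and 73.0% to 76.5%. The shares overlapped for aldolase, lactate dehydrogenase, the pyruvate dehydrogenase kinases, EGLN1 with EGLN3 and BNIP3 with BNIP3L. The aldolase share rests on the ALDOA row, which may not give the level of ALDOA. The BNIP3 share leaves out the counts in its pseudogene rows.

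Other genes of the same pathways were read from lists of known members. Of 20 tested further glycolysis genes 4 rose and 7 fell, or 20% and 35% where 27.0% and 25.1% of all tested genes did, with a median log2 fold change of -0.03. TIGAR, which lowers fructose 2,6-bisphosphate, rose from 26.0 ± 1.10 to 48.2 ± 2.82 CPM (0.89 ± 0.06), and SLC2A12, a glucose transporter, from 0.931 ± 0.238 to 3.73 ± 0.791 CPM. ADPGK, an ADP-dependent glucokinase, fell from 60.9 ± 1.35 to 42.7 ± 3.32 CPM (-0.51 ± 0.05). Of 12 tested genes of pyruvate oxidation 2 rose and 4 fell, or 16.7% and 33.3% beside the same background (median -0.05). The pyruvate dehydrogenase subunits PDHB and DLD fell by 0.41 ± 0.05 and 0.45 ± 0.06 on the log2 scale, and PDPR, a regulator of the phosphatase that reactivates the complex, fell by 0.38 ± 0.04. PDK4, another kinase of pyruvate dehydrogenase, went the opposite way to PDK1 and PDK3: it was at 0.402 to 0.592 CPM in CTRL and at 1.73 to 3.05 CPM in DJL1 (2.22 ± 0.27, edgeR adjusted p = 4.82e-06).

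Of 18 genes of the HIF machinery 7 rose and 9 fell, or 38.9% and 50.0% where 27.0% and 25.1% of all tested genes did, with a median of -0.13. Most of these genes lie in the ranges of level used above, in which 38.3% (8 to 64 CPM) and 52.1% (at least 64 CPM) of genes were called lower. HSP90AA1, a chaperone that stabilises HIF alpha among many clients, rose from 1995 ± 87.7 to 3901 ± 145 CPM (log2 fold change 0.97 ± 0.04). CITED2, which competes with HIF alpha for its coactivators, rose from 54.5 ± 2.02 to 98.0 ± 7.90 CPM (0.85 ± 0.05). RBX1, a subunit of the VHL ubiquitin ligase and of other cullin ligases, fell from 43.8 ± 1.66 to 28.9 ± 3.24 CPM (-0.60 ± 0.07), and HIF1AN, the asparagine hydroxylase that blocks HIF activity, fell from 102 ± 2.28 to 75.8 ± 9.84 CPM (-0.43 ± 0.06).

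A further list of 46 tested hypoxia targets showed 22 that rose and 8 that fell, with a median of 0.18. Within it, 9 of 23 genes with a mean of 8 to 64 CPM were called higher, or 39.1% against the 28.9% of all genes at that level, and 7 of 13 with a mean of 64 CPM or more, or 53.8% against 22.8%. BHLHE40, a HIF-induced repressor, was at 98.9, 92.6, 103 and 104 CPM in CTRL and 215, 248 and 206 CPM in DJL1 (log2 fold change 1.16 ± 0.06). DDIT4, an inhibitor of mTORC1 signalling, rose from 138 ± 2.57 to 257 ± 10.2 CPM (0.89 ± 0.04), and STC2, a secreted stanniocalcin, from 79.7 ± 2.07 to 148 ± 6.94 CPM (0.90 ± 0.04). Many genes of this list, among them DDIT4 and STC2, are also known to respond to stress signals other than hypoxia.

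**Figure D4:**
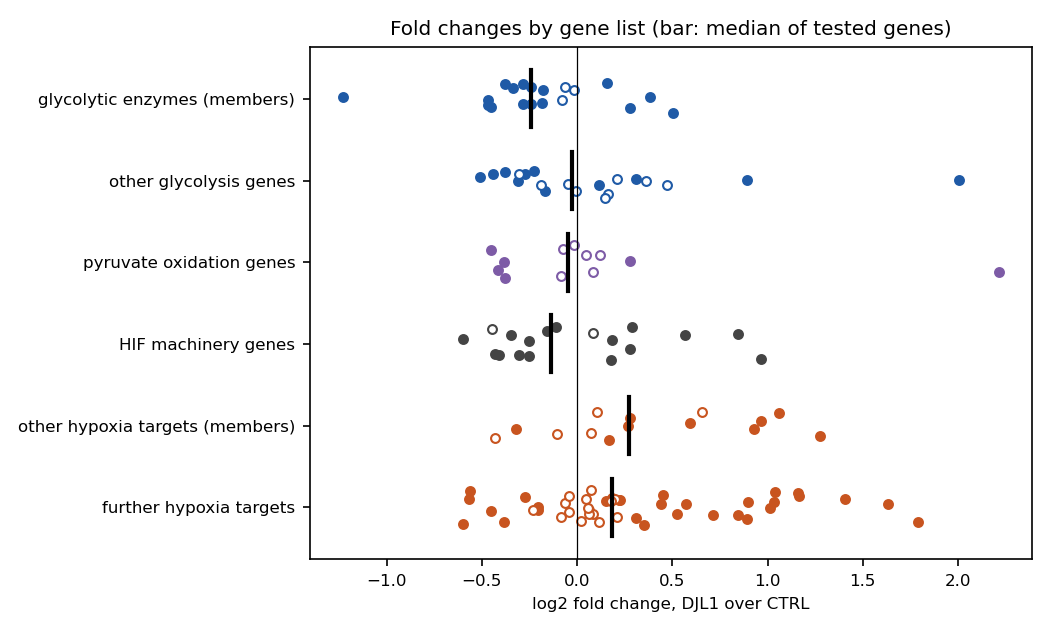
Log2 fold change of DJL1 over CTRL for the tested genes of 6 lists, with filled points for called genes, open points for genes not called and a black bar at each median (vertical scatter has no meaning). The medians of the other hypoxia targets (0.27) and the further hypoxia targets (0.18) lie right of 0, and those of the glycolytic enzymes (-0.24), the HIF machinery (-0.13), pyruvate oxidation (-0.05) and other glycolysis genes (-0.03) left of it.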

How the data were processed

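The authors deposited raw counts per gene symbol, with 1 column for each of the 7 libraries per the file headers. Per the submitters' processing notes the tools were HISAT2 2.2.1, Trim Galore 0.4.0, featureCounts and Subread 1.5.0 with GRCh38 and hg38, in roles and an order that are not given. Whether counting used strand or multiply mapped reads is not given in the sources used here. The authors' deposited comparison table gives log2 fold changes, p-values and adjusted p-values per the file headers, and holds 39 of the 41 genes (not CA9 and ANKRD37), 38 with the same call as here; its t and log odds scores, also deposited, and a deposited table of log values were not used.

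Groups were read from the sample titles. The labels mention cell sorting whereas the design text has cells processed directly, and they give no batch. Counts were filtered with filterByExpr (minimum count 10, minimum total 15), scaled by TMM and tested with edgeR 4.0.16 (R 4.3.3, robust quasi-likelihood, 2-sided, Benjamini-Hochberg at 0.05). Standard errors derive from each log2 fold change and its F statistic. Lengths for CPM per kilobase are those of GENCODE release 29 principal transcripts, and positions and promoter windows come from RefSeq GRCh38.p14. Pseudogene rows were found by symbol. Of the other pathway lists up to 4 genes with the smallest adjusted p and at least 1 CPM in a group are named, apart from 1 gene that is not reported here. The code was tested on simulated data. Alternatives were DESeq2 1.42.0, limma-voom (3.58.1), other scalings, filters and thresholds, thinning to 34634882 counts, each library left out, the replicate block, changed list membership, added pseudogene rows and, chosen after seeing the data, removal of the trend of fold change with expression. The members, lists and levels of 8 and 64 CPM were chosen with earlier results of these data known.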

Additional observations from a re-analysis of the deposited data

How the results depend on the processing

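Of the 32 called genes 27 (13 higher, 14 lower) kept their call and direction in every setting that applied to them. These were 20 settings for genes with pseudogene rows and 19 for the others. The other 5 called genes (HK2, ALDOA, ALDOC, SLC2A3 and BNIP3L) lost the call in at least 1. No called gene changed direction in these settings. Leaving out each library in turn gave 4 enzymes higher and 11 to 14 lower (median log2 fold change -0.28 to -0.23), and 7 to 8 other hypoxia targets higher and 1 to 2 lower, with 2 lower without DJL1 replicate 3. The median of these targets ranged from 0.20, without DJL1 replicate 1, to 0.28. It was 0.14 with the transporters and kinases counted among them and 0.43 without EGLN1 and EGLN3. With no filter 2 of these targets were lower. Removing the trend of fold change with expression gave 10 enzymes lower, a median of -0.13 for the enzymes and 2 targets lower. HK2, ALDOC and SLC2A3 were then not called, and HIF1A (0.14), BNIP3 (0.19) and CA9 (-0.69) were. No pairing of the libraries by replicate number was seen: deviations from the group means correlated at 0.0151, -0.102 and -0.110 for numbers 1 to 3. With so few libraries these values cannot exclude a pairing. With the replicate number as a block 13 genes were higher and 16 lower, and 5863 and 5614 of all tested genes in place of 7029 and 6530. Not every library correlated best with its own number. CA9 and ANKRD37 rest on few counts, 19 to 30 and 2 to 19 in the DJL1 libraries.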
